A study of Mus musculus with 16 samples.

Results

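The genes examined here were 6 enzymes of lipid synthesis, *Pmvk*, *Fdps*, *Sqle*, *Ebp*, *Fasn* and *Agpat2*, out of 9026 genes that could be named on the array. They were chosen by symbol, each was represented by 1 probe, and all 6 passed the requirement of a value in at least 3 mice in both tissues. The samples were brain and liver of 4 male HdhQ111/+ heterozygotes, aged 18 weeks, of the strain C57BL/6J. HdhQ111 is a lengthened CAG repeat knocked into the mouse's own huntingtin gene (*Htt*), and models the mutation of Huntington's disease. The allele is present in every cell and is driven by the gene's own promoter, with 1 wildtype copy beside it. The reference was wildtype RNA of the same tissue, strain, sex and age, pooled from 4 males. Each mouse and tissue was hybridised on 2 two-colour arrays with the dyes swapped, which gave 8 arrays per tissue and 16 in all, and the same 4 mice gave both tissues.

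Cholesterol is built from acetyl-CoA through mevalonate and farnesyl diphosphate to squalene, which is then oxidised, cyclised and trimmed to cholesterol. Fatty acid synthase builds palmitate from malonyl-CoA, and acyltransferases load fatty acids onto glycerol phosphate to make phospholipid and triglyceride. The sterol regulatory element-binding proteins (SREBPs) switch on most of these genes, often with the CCAAT-binding factor NF-Y. The liver makes lipid for export to the rest of the body. The brain makes its own cholesterol because that of the blood does not cross the blood-brain barrier, and much of it goes into myelin.

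All values are log2 ratios to the wildtype pool, likely HdhQ111/+ over wildtype, since no file header states the sign or the base. Both arrays of a mouse were averaged to give its value, and each mean over mice is given with its SD. The deposited gene names sit 11 rows away from the values, as found from the data, and every gene name here depends on that shift. The arrays give ratios and no signal intensities, so the labelled tissues could not be checked against the level of their markers. In such bulk samples, fewer cells of a type and less RNA per cell cannot be told apart. Array quality differed. The liver arrays of mouse 1 had interquartile ranges of 0.867 and 1.275 against 0.383 to 0.728 for the other liver arrays. In brain, mouse 3 had the highest median of its mouse values, 0.13, and the brain medians ran from -0.0895 to 0.13, against -0.0555 to -0.0035 in liver.

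Promoter sequence was taken from RefSeq (GRCm38.p6) for the 250 bases before each transcription start. The table matched 4 of the 6 genes, with a pair of starts for *Pmvk*, and *Fdps* and *Sqle* were not matched. The promoters of *Fasn* and *Ebp* are shown because the liver ratio of *Fasn* and the brain ratio of *Ebp* are among those the results turn on, and because both held the CCAAT box, the letters NF-Y recognises, more than once. The *Fasn* window is chr11:120824548-120824797 and the *Ebp* window chrX:8193513-8193762, both on the minus strand of the chromosome and written 5′ to 3′ along the gene, with CCAAT or its reverse complement ATTGG in capitals.
Fasn: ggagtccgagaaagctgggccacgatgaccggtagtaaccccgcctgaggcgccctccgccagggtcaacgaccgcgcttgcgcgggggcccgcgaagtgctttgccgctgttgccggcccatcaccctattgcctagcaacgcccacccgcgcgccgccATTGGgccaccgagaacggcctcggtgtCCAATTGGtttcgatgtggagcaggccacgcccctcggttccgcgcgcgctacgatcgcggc
Ebp: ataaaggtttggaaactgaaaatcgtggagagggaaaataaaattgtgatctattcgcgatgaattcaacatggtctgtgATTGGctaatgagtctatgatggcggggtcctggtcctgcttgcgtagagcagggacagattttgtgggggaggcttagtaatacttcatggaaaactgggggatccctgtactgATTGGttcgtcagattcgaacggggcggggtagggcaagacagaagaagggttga
*Fasn* held 3 CCAAT matches, at 90, 62 and 59 bases before the start, the last 2 overlapping in CCAATTGG. *Ebp* held 2, at 170 and 55 bases before the start, and both lay on the strand opposite to the gene. The first start of *Pmvk* had 1, at 136 bases, and its other start and *Agpat2* had 0. On either strand, 33.85% of 32851 promoters in the table had at least 1 CCAAT. The core letters of a sterol regulatory element, searched as TCACNCC, were in none of the 5 windows of these 4 genes, against 13.36% of all promoters, and the E-box CACGTG was in none of them, against 6.021%.

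The enzymes of the mevalonate route come first. *Pmvk* (phosphomevalonate kinase, which adds the second phosphate to mevalonate) had liver ratios of 0.87, 0.41, 0.16 and -0.0025 in mice 1 to 4, and brain ratios of -0.0325, 0.037, 0.16 and 0.033. Its liver values spread from about equal to the pool to well above it, while all 4 brain values lay close to it. The liver mean was 0.36 ± 0.38 (SD, n = 4), a ratio of 1.29, with an adjusted p of 0.636 by limma, and the brain mean was 0.050 ± 0.082. The arrays of a pair lay on opposite sides of 0 in mice 1, 2 and 4, in mouse 4 only at 0.076 and -0.081. In mouse 1 the array with mutant RNA in Cy5 read -0.47 and the one with it in Cy3 read 2.21, and in mouse 2 they read -0.19 and 1.02. The liver mean thus turned with the dye, at -0.14 on the Cy5 arrays alone and 0.87 on the Cy3 arrays alone, and without mouse 1 it was 0.19. In brain all 4 Cy5 arrays were above 0 and all 4 Cy3 arrays below it, with means of 0.44 and -0.34.

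*Fdps* (farnesyl diphosphate synthase, which makes the isoprenoid that leads to squalene, dolichol and protein prenylation) was lower than the pool in the liver of all 4 mice, at -0.30, -0.88, -0.39 and -1.05. In brain it was at -0.11, 0.14, 0.47 and -0.0035, so that every liver value was below every brain value. The liver mean of -0.66 ± 0.37 (SD, n = 4) is a ratio of 0.635 to the pool. limma gave it a p of 0.00773 and an adjusted p of 0.636, rank 84 of 20127 probes by p, and 1.12% of probes had a lower mean. Of the 8 liver arrays, 7 were below 0, and the exception was the Cy5 array of mouse 1 at 0.38 against -0.98 on its Cy3 partner. The Cy3 arrays of the other mice read -1.22, -0.61 and -1.18 and their Cy5 arrays -0.55, -0.17 and -0.92, so that each Cy3 array was the lower of its pair. Without any 1 mouse the liver mean stayed between -0.77 and -0.53. The brain mean was 0.12 ± 0.25, 0.0083 without mouse 3 and -0.059 on the Cy3 arrays alone.

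The liver values of *Fdps* ran in the same order of mice as those of the haemoglobin gene *Hba-a1*, the mean of 6 probes, which were -0.15, -0.64, -0.18 and -1.75. Of the 6 blood markers listed, 3 were measured in liver, and 2 of them had a mean below 0, against 56.7% of all genes. *Alas2* (heme synthesis in red cells) was at 0.30, 0.46, -0.05 and -0.014, and *Slc4a1* (the red cell anion exchanger) at -1.65, 0.26 and 0.76 in mice 1, 3 and 4. The part of blood in the *Fdps* result was not tested.

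*Sqle* (squalene epoxidase, the first oxygen-using step of sterol synthesis) was at 0.43, -0.32, -0.39 and -0.42 in liver. Mouse 1 lay far above the other 3. The value of mouse 2 averaged opposite readings, -0.86 on its Cy5 array and 0.23 on its Cy3 array. Of the 8 liver arrays, 5 were below 0, and the mean on the Cy3 arrays alone was -0.038. The mean was -0.17 ± 0.40 (SD, n = 4; adjusted p 0.715 by limma), and it was -0.37 without mouse 1 (adjusted p 0.755) and between -0.13 and -0.092 without any 1 of the others. In brain *Sqle* was at -0.073, -0.0855, 0.44 and 0.34, a mean of 0.16 ± 0.28, and -0.058 on the Cy3 arrays alone. Mice 3 and 4 were thus above the pool in brain and below it in liver, and mouse 1 the reverse.

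*Ebp* (the sterol isomerase that moves the double bond of the sterol ring late in the pathway) was at 0.0015, 0.83, 1.015 and 0.47 in brain and -0.59, -0.36, 0.15 and -0.43 in liver. Brain values were thus at or above the pool in all 4 mice and liver values below it in 3 of 4, and the tissues overlapped only through mouse 1 in brain and mouse 3 in liver. The brain mean of 0.58 ± 0.45 (SD, n = 4) is a ratio of 1.49. limma gave a p of 0.0327 and an adjusted p of 0.998, rank 416 of 19325 probes. Of the 8 brain arrays, 7 were above 0, and the Cy5 mean of 0.49 and the Cy3 mean of 0.67 were of like size. The liver mean was -0.31 ± 0.32 (adjusted p 0.636), with 6 of 8 arrays below 0.

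*Fasn* (fatty acid synthase) had the widest spread of the 6 genes in liver, at -0.51, -1.08, 0.44 and -0.83. Mouse 3 was above the pool on both of its arrays, at 0.71 and 0.18, and the other 3 mice were below it on all 6 of theirs. The liver mean was -0.50 ± 0.67 (SD, n = 4; adjusted p 0.636 by limma), and ran from -0.81 without mouse 3 to -0.30 without mouse 2. In brain the values were -0.38, -0.14, 0.39 and 0.29, a mean of 0.040 ± 0.36, with 2 mice on each side of the pool.

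*Agpat2* (an acyltransferase that makes phosphatidic acid and is needed for fat storage) was at -0.15, -0.21, -0.30 and -0.11 in liver. All 8 liver arrays were below 0, from -0.39 to -0.049, and the arrays of a pair differed by at most 0.187. The mean of -0.19 ± 0.081 (SD, n = 4) had the smallest SD of the 6 genes in liver, and limma gave a p of 0.0797 and an adjusted p of 0.636. In brain the mouse values were 0.02, 0.20, 0.095 and -0.0585, each the mean of arrays that disagreed. The 4 Cy5 arrays there were all below 0, with a mean of -0.62, and the 4 Cy3 arrays all above it, with a mean of 0.74. In mouse 1 they were 2.39 apart, so that the brain values of *Agpat2* average opposite readings.

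**Figure D1:**
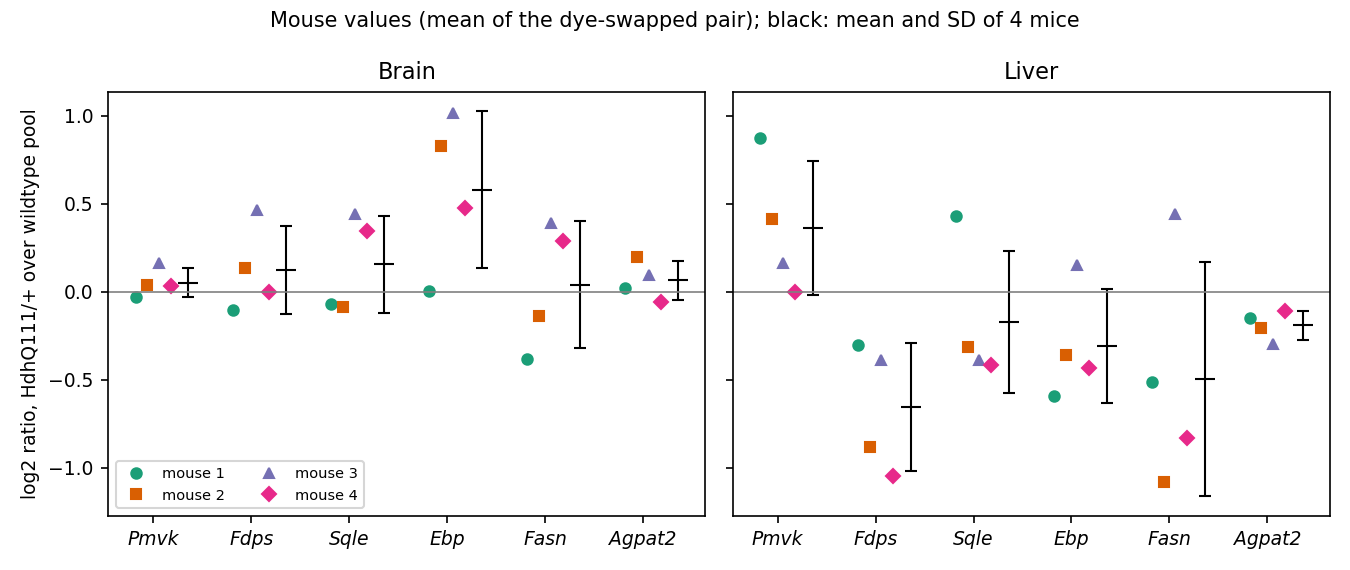
Log2 ratio to the wildtype pool of each gene in brain (left) and liver (right), with 1 symbol per mouse (the mean of its dye-swapped arrays) and black bars for the mean and SD of 4 mice. In liver all 4 mice lie below 0 for *Fdps* and *Agpat2*, mouse 1 lies apart for *Pmvk* and *Sqle*, and mouse 3 is the only mouse above 0 for *Fasn*.

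**Figure D2:**
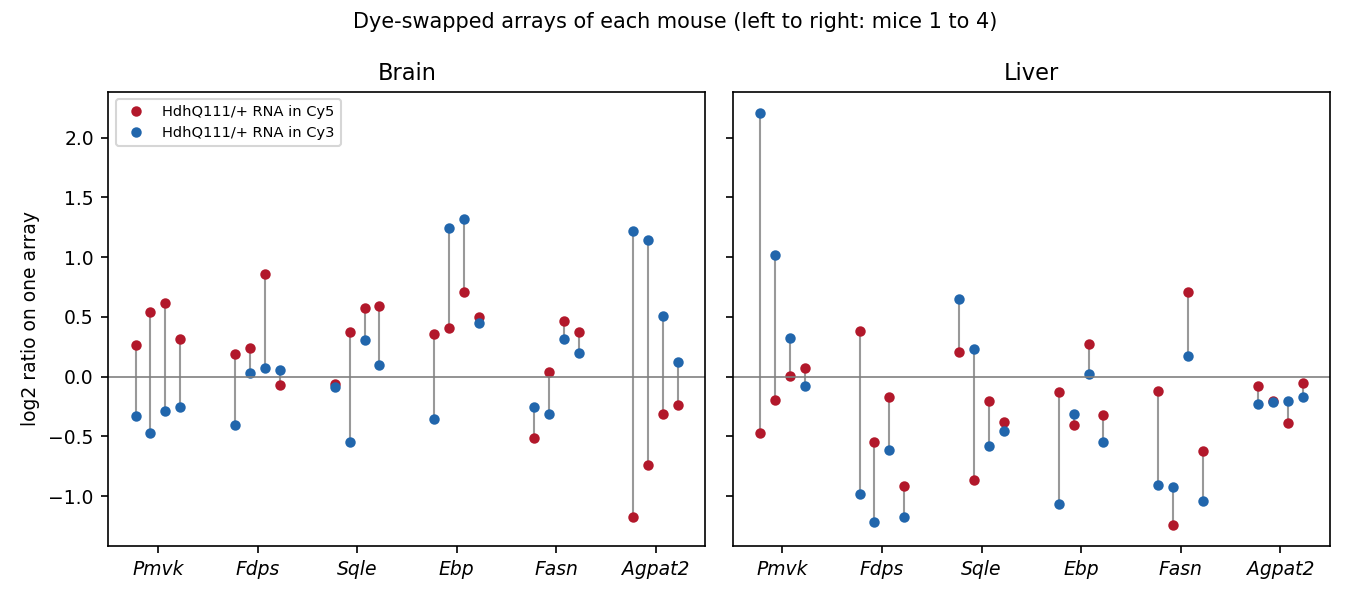
Log2 ratio on each single array, in pairs joined by a line (mice 1 to 4 from left to right within a gene), with mutant RNA in Cy5 in red and in Cy3 in blue. *Agpat2* shows long lines across 0 in brain and short ones below 0 in liver, and *Pmvk* in the liver of mouse 1 has the longest line, from -0.47 to 2.21.

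None of the 6 genes passed limma's test at an adjusted p of 0.05 in either tissue, and neither did any other probe. In liver 0 of 20127 probes passed (0.0%) and 1409 had an unadjusted p under 0.05 (7.0%), and in brain 0 of 19325 passed (0.0%) and 677 had one (3.5%). At the unadjusted level *Fdps* was lower in liver, as were 4.12% of probes, and *Ebp* was higher in brain, as were 1.62%. *Fdps* and *Agpat2* were lower in the liver of all 4 mice, as were 12.7% of probes. *Ebp* was above 0 in the brain of all 4 mice, as were 6.78%, though in mouse 1 only by 0.0015. By liver mean the order from lowest was *Fdps*, *Fasn*, *Ebp*, *Agpat2*, *Sqle* and *Pmvk*, and each gene's range of mouse values overlapped that of its neighbour in this order.

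The difference between the tissues was tested in a limma fit of its own, which did not pair liver and brain by mouse. The SEs given with it are therefore not those of the differences per mouse. The difference compares the ratio in liver with the ratio in brain and not the level of the RNA. Per mouse, *Fdps* differed by -0.19, -1.02, -0.86 and -1.04 and *Ebp* by -0.60, -1.18, -0.87 and -0.91, so that both were lower in liver than in brain in every mouse. The mean for *Fdps* was -0.78 (SE 0.22, adjusted p 0.739) and for *Ebp* -0.89 (SE 0.26, adjusted p 0.739), ranks 123 and 161 of 19055 probes. *Agpat2* was the third with 4 negative differences, at -0.17, -0.41, -0.39 and -0.0515 (mean -0.26, SE 0.13, adjusted p 0.739), but its sign rested on the Cy3 arrays, since on the Cy5 arrays alone the difference was 0.44. Negative differences in all mice were found in 12.6% of probes.

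The remaining genes differed less regularly. *Sqle* was at 0.50, -0.23, -0.83 and -0.76 (mean -0.33, SE 0.24), *Fasn* at -0.13, -0.95, 0.0485 and -1.12 (mean -0.54, SE 0.34) and *Pmvk* at 0.90, 0.38, 0.0005 and -0.0355 (mean 0.31, SE 0.20). Their adjusted p by limma was 0.763, 0.752 and 0.754. The difference of *Pmvk* was -0.58 on the Cy5 arrays alone and 1.20 on the Cy3 arrays alone, and that of *Sqle* was -0.68 and 0.0205. Every liver value lay below every brain value for *Fdps* and *Agpat2*, 2 of the 6 genes, and the same was true of 3.53% of probes. At an unadjusted p under 0.05 *Fdps* and *Ebp* were lower in liver than in brain, as were 3.87% of probes (6.47% in both directions together). Only 1 of 19055 probes passed at an adjusted p of 0.05 (0.00525%), and it was none of these genes. With the mouse as a block, which is a true pairing here, *Fdps* and *Ebp* each had an adjusted p of 0.762, with SEs of 0.20 and 0.17.

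Mouse 3 gave the highest brain value of all 4 mice for *Pmvk*, *Fdps*, *Sqle*, *Ebp* and *Fasn*, and it also had the highest brain median over all probes. After each array was centred on its median, mouse 3 stayed highest for *Fdps* at 0.34, *Sqle* at 0.32, *Ebp* at 0.89 and *Fasn* at 0.27. For *Sqle* and *Fasn* mouse 4 was then about equal to it, at 0.317 and 0.263. *Pmvk* was then at 0.04 in mouse 3 and highest in mouse 1 at 0.0635.

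Other genes of the same pathways were taken from pathway lists, after averaging all probes that belong to a gene. Of 24 cholesterol synthesis genes, 15 were named, and 12 of these had a liver mean below 0 against 56.7% of all 8828 genes. Their median was -0.17 against -0.031 for all genes. None passed limma's gene-level test in liver, where 0 of 8828 genes did (0.0%, with 671 at an unadjusted p under 0.05, 7.6%). *Fdps* was the only one with an unadjusted p under 0.05, as 4.96% of all genes had in this direction. *Fdps*, *Mvk* (mevalonate kinase), *Msmo1* (sterol C4 demethylation) and *Sc5d* (sterol C5 desaturation) were below 0 in all 4 livers, as were 14.1% of all genes. *Msmo1* was at -0.0265, -0.56, -0.14 and -0.57, with the lowest values in mice 2 and 4 as for *Fdps*. *Fdft1* (squalene synthase) was at 0.068, -0.17, -0.23 and -0.34, and *Hmgcs1* (HMG-CoA synthase), the mean of 2 probes, was at -0.54 in mouse 4. Its probes had opposite signs in the other 3 livers, at 0.16, -0.37 and -0.11 on one and -0.17, 0.30 and 0.17 on the other, with means near 0. The exceptions above 0 were *Pmvk*, *Ggps1* and *Mvd*, and the *Mvd* (mevalonate diphosphate decarboxylase) mean of 0.67 ± 1.27 came from 2.57 in mouse 1. On the Cy5 arrays alone, 9 of 15 were below 0 in liver, against 49.5% of all genes, and the median was -0.096.

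In brain 12 of 14 tested cholesterol synthesis genes had a mean above 0, against 56.9% of all 8621 genes, and the median was 0.095 against 0.024. *Ebp* had the only unadjusted p under 0.05 among them, as 1.55% of all genes had in this direction, and 0 of 8621 genes passed after adjustment (0.0%, with 269 at an unadjusted p under 0.05, 3.12%). *Cyp51* (lanosterol demethylase) was the second highest at 0.27 ± 0.52, with 0.58 and 0.84 in mice 1 and 2 and -0.10 and -0.23 in mice 3 and 4. Its 2 probes disagreed, with brain means of 0.56 and -0.010, and the first alone read 1.52 and 1.55 in mice 1 and 2. This direction was not kept on the Cy3 arrays alone, where 10 of 15 were below 0, against 59.6% of all genes, with a median of -0.084. The median of all genes moved from 0.11 on Cy5 arrays to -0.059 on Cy3 arrays. In liver minus brain, 11 of 14 had a difference below 0 (57.8% of all 8543 genes). *Dhcr7* (the last reduction to cholesterol), at -0.36, had an unadjusted p under 0.05 besides *Fdps* and *Ebp*, against 4.55% of all genes in that direction, and none of the 14 passed after adjustment, where 1 of 8543 genes did (0.0117%).

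Markers of other cell types stood beside these brain values. All 6 measured pituitary markers had a brain mean below 0, against 43.05% of all genes, with a median of -2.19. *Gh*, *Prl*, *Pomc* and *Cga* had an unadjusted p under 0.05, as 1.57% of all genes had on the low side. Of 8 oligodendrocyte markers, 4 were above 0, against 56.9% of all genes, and 4 below, with a median of 0.0275. The brain medians were -0.057 for 9 astrocyte markers, 0.012 for 7 neuron markers and 0.15 for 7 markers of a joint microglia and Kupffer cell list. The part of cell or tissue content in the sterol gene values was not tested.

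**Figure D3:**
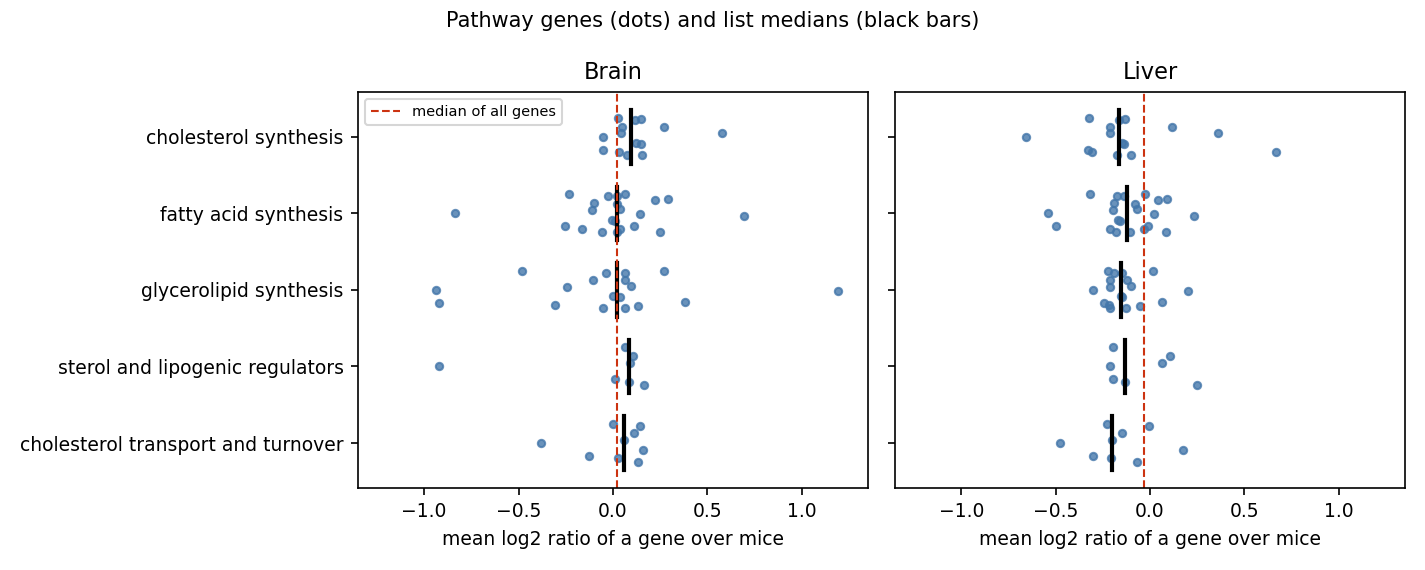
Mean log2 ratio of each gene over mice (dots), by pathway list, in brain (left) and liver (right), with black bars for list medians and a dashed line for the median of all genes. In liver all 5 list medians lie left of the dashed line, between -0.20 and -0.12, and in brain the cholesterol synthesis median lies at 0.095.

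Of 32 fatty acid synthesis genes, 22 were named, and 17 had a liver mean below 0, against 56.7% of all genes, with a median of -0.12. That count was 7 of 22 on the Cy5 arrays alone, against 49.5% of all genes, with a median of 0.050. *Thrsp* (a nuclear protein that promotes lipogenic gene expression) had the largest mean, -0.54 ± 0.62, at -0.50, -0.82, 0.30 and -1.14. Its 8 mouse values were the closest of all 7171 other fully measured genes to those of *Fasn*, by a root mean square difference of 0.259. Both were above the pool in the liver of mouse 3 and below it in the other 3 mice. *Acly* (ATP citrate lyase, which supplies acetyl-CoA) was at -0.075, -0.39, 0.41 and -0.62 and *Scd1* (which desaturates stearate) at 0.05, -0.14, 0.84 and 0.19, with mouse 3 highest in each.

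*Elovl6* (elongation of palmitate), the mean of 4 probes, also had mouse 3 highest. All 4 mice were below the pool, at -0.28, -0.31, -0.029 and -0.16. Its probes disagreed. One had mouse 4 highest, at -0.0505, another mouse 1, at -0.33, and one had a liver mean of 0.039 with 0.385 in mouse 3. *Me1* (malic enzyme, a source of NADPH), the mean of 2 probes, was at 0.15, -0.56, 0.045 and -0.27, with mouse 1 highest. On 1 of these probes mouse 3 was highest, at 0.22 against 0.0075 in mouse 1. *Hsd17b12* (a reductase of fatty acid elongation) was below 0 in all 4 livers, as were 14.1% of all genes, at -0.48, -0.41, -0.088 and -0.30. It had the only unadjusted p under 0.05 of the list, 0.0209 (adjusted p 0.598 by limma), 1 of 22 against 4.96% of all genes in this direction. *Scd2* was at -0.17 ± 0.36 in liver and 0.020 ± 0.042 in brain.

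**Figure D4:**
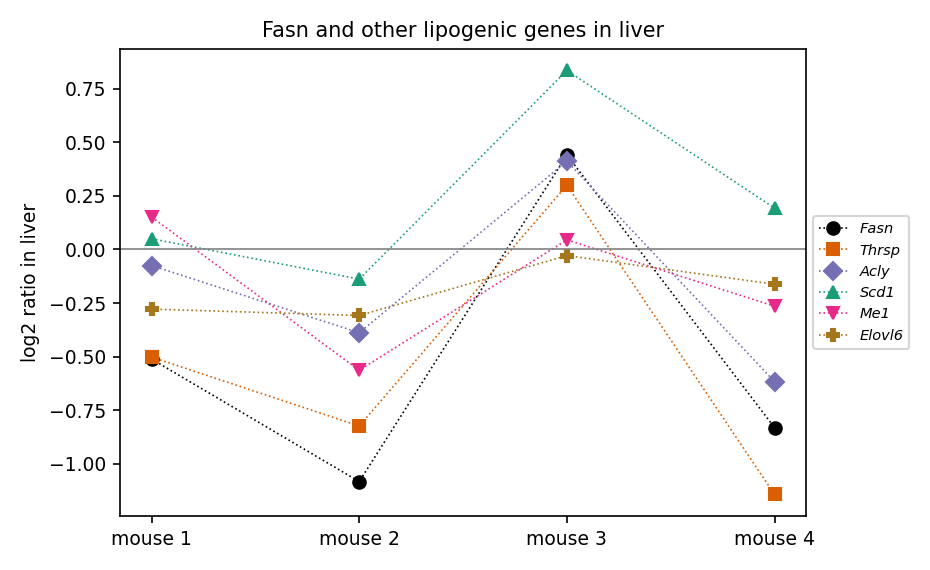
Log2 ratio in liver for *Fasn* and 5 other lipogenic genes, with 1 symbol per gene and mouse and dotted lines that only join the points of a gene. Mouse 3 is the highest mouse for *Fasn*, *Thrsp*, *Acly*, *Scd1* and *Elovl6*, and mouse 2 or 4 the lowest, while *Me1* is highest in mouse 1. The values of *Elovl6* and *Me1* average 4 and 2 probes, which differ in their highest mouse.

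In brain the fatty acid genes lay on both sides of the pool, with 9 of 22 below 0, against 43.05% of all genes, and a median of 0.020. Without mouse 3, 14 of 22 were below 0, against 53.97% of all genes. The 3 largest brain means were those of *Elovl5*, *Mlycd* and *Slc25a1*. *Elovl5* (elongation of polyunsaturated fatty acids) was at -0.84 ± 1.33 over 3 mice, *Mlycd* (malonyl-CoA decarboxylase) at 0.69 ± 0.97 over 3, and *Slc25a1* (the mitochondrial citrate carrier) at 0.29 ± 0.28 over 4, all above 0. None of the 22 had an unadjusted p under 0.05 in brain.

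Of 21 glycerolipid synthesis genes, 18 were named, and 15 had a liver mean below 0, against 56.7% of all genes, with a median of -0.15. On the Cy5 arrays alone 10 of 18 were below 0, against 49.5% of all genes, with a median of -0.044. *Agpat3*, which catalyses the same step as *Agpat2*, was at -0.49, -0.365, -0.35 and -0.009 in liver and at 0.12, 0.10, 0.13 and 0.18 in brain, so that its tissues did not overlap either, with liver below brain as in 3.69% of all genes. *Gpd1* (which makes glycerol phosphate), the mean of 2 probes, was at -0.22 ± 0.066 in liver. It was below 0 in all 4 mice, as were 14.1% of all genes. One of its probes read 0.0115 in mouse 4, and the probes had unadjusted p-values of 0.148 and 0.0242 by limma. *Agpat3* and *Gpd1* had unadjusted p-values of 0.0344 and 0.0351 in liver, and an adjusted p of 0.598 by limma's gene-level fit. They were 2 of 18 with such a p on the low side, against 4.96% of all genes. Among the other acyltransferases of this family, *Agpat5* was at -0.13 ± 0.15 with 3 of 4 livers below 0, *Agpat1* at 0.018 ± 0.37, and *Agpat4* at 0.20 ± 0.12, above 0 in all 4 livers as were 7.17% of all genes.

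In brain 8 of the 18 glycerolipid genes were below 0, against 43.05% of all genes. After centring and scaling 9 were, against 47.2%, and the median turned from 0.019 to -0.0096. *Gpam* (mitochondrial glycerol phosphate acyltransferase) was at -1.40, -1.28, 0.13 and -1.20, far lower in 3 mice than in mouse 3, with an unadjusted p of 0.0201, under 0.05 on the low side as for 1.57% of all genes. *Mogat1* was at -0.92 ± 0.81 over 3 mice. *Mttp* (which loads lipid onto lipoproteins) owed its mean of 1.19 ± 2.16 to 4.44 in mouse 1, where its 2 probes read 8.33 and 0.54. A pair mean as large as 8.33 can come from a ratio over 15 on 1 array. In liver *Gpam* was at -0.25 ± 0.52 over 3 mice, *Dgat1* and *Dgat2*, which make triglyceride, at -0.052 ± 0.44 and -0.21 ± 0.31, and *Lpin1* (phosphatidate phosphatase) at -0.15 ± 0.16. The brain values of these last 3 were -0.48 ± 0.64 over 3 mice, 0.036 ± 0.69 and 0.27 ± 0.61. The probes of *Dgat2* had liver means of -0.43 and 0.0029, and the second had brain values only in mice 3 and 4, at 1.20 and -1.65. One *Lpin1* probe had a brain value only in mouse 1, at 3.53, and its other probes had brain means of 0.23 and -0.29.

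**Figure D5:**
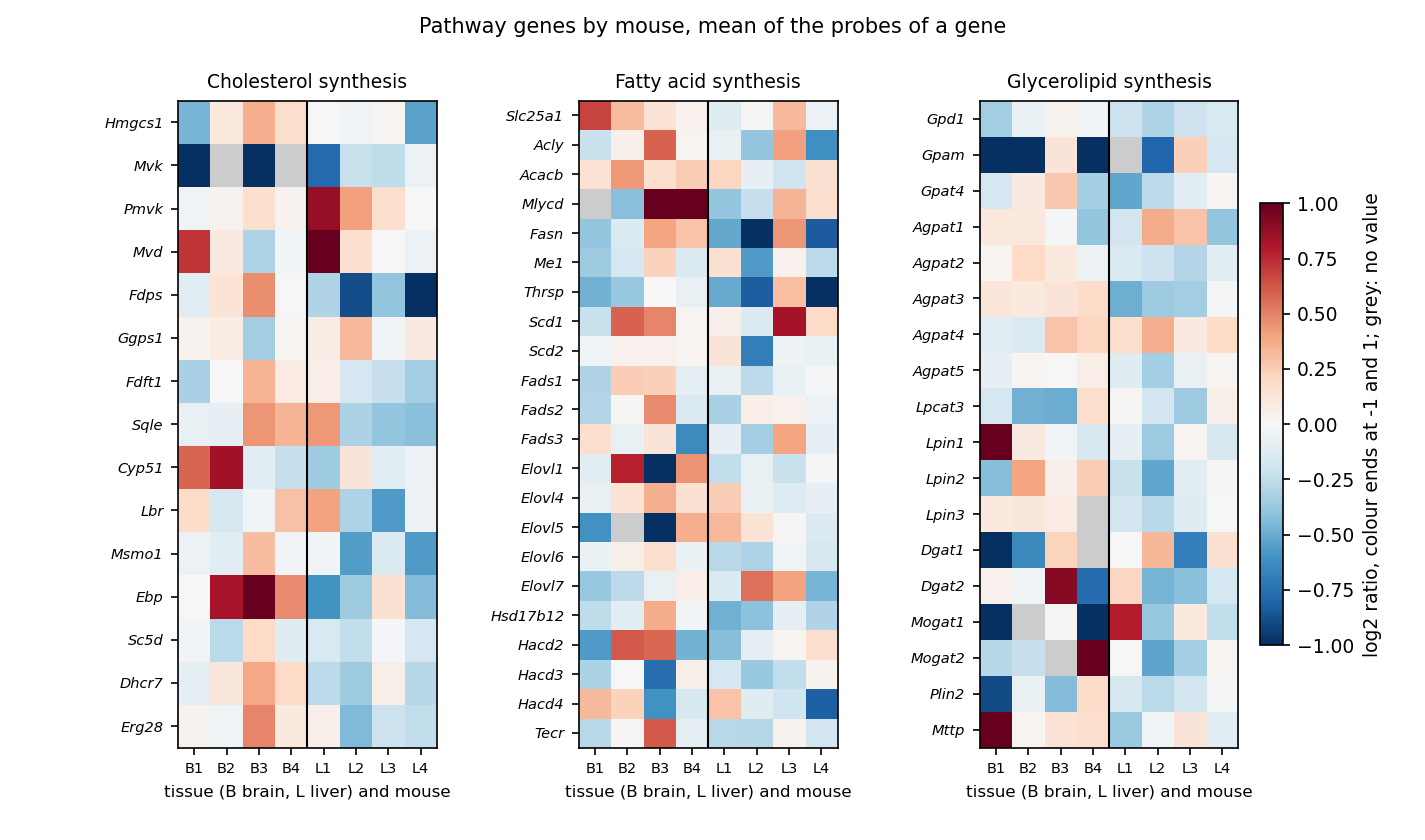
Log2 ratio of each named gene of 3 pathway lists in the brain (B) and liver (L) of mice 1 to 4, blue below and red above the wildtype pool, with colours ending at -1 and 1 and grey for no value. The column L2 is mostly blue in all 3 panels, and B3 is mostly red among cholesterol synthesis genes, where *Ebp* and *Sqle* reach 1.015 and 0.44.

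Of 18 regulators of the pathway, 8 were named and 7 tested. They gave no uniform picture in liver, with 4 below 0 and 3 above, where 56.7% of all genes were below 0. *Scap* (the escort protein of SREBPs) was at -0.19 ± 0.19, *Nr1h3* (the oxysterol receptor LXR alpha) at -0.21 ± 0.21, and *Insig2* (which holds SCAP and SREBP in the endoplasmic reticulum) at 0.25 ± 0.29. In brain 6 of 7 were above 0, against 56.9% of all genes, and 5 were after centring. Without mouse 3, 2 were, the median turned from 0.085 to -0.050, and 53.97% of all genes were below 0. *Mylip*, a ubiquitin ligase induced by LXR, was at 0.17 ± 0.10 and above 0 in all 4 mice, as were 6.6% of all genes. No *Mylip* probe alone was above 0 in all 4 brains, and its 3 probes read -0.98, 1.025 and 0.14 in mouse 4. *Mlxipl* (the carbohydrate-responsive factor ChREBP) was at -0.92 ± 2.01, with -3.88 in mouse 2, the mean of -8.02 on one probe and 0.27 on the other. Without floor ratios (those over 15 in size on an array) no regulator was below 0 in brain, *Mlxipl* included. *Insig1*, *Srebf1*, *Srebf2*, *Acaca*, *Cyp7a1*, *Idi1* and *Lss* were not analysed here.

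Of 19 genes of cholesterol transport and turnover, 9 were named, and 8 had a liver mean below 0, against 56.7% of all genes, with a median of -0.20. The count was 7 after centring (53.5% of all genes) and 4 on the Cy5 arrays alone (49.5%). *Cyp7b1*, the oxysterol hydroxylase of the alternative route to bile acids, was at -0.42, -0.51, -0.36 and -0.62, with a mean of -0.475 ± 0.12 (adjusted p 0.598 by limma). *Cyp27a1*, which starts that route, was at -0.30 ± 0.20, and *Apoe*, the main lipid carrier of the brain, at -0.23 ± 0.11. All 3 were below 0 in every liver and had unadjusted p-values of 0.00221, 0.0335 and 0.0435. Of all genes, 14.1% were below 0 in every liver and 4.96% had a p under 0.05 on that side. In brain 7 of the 9 were above 0, against 56.9% of all genes, with 6 after centring and 4 on the Cy3 arrays alone. Their median was 0.059 (-0.019 on those Cy3 arrays), and none had an unadjusted p under 0.05. *Apoa1* was there at -0.38 ± 0.65 over 3 mice, *Lipa* (lysosomal acid lipase) at 0.16 ± 0.12 and *Abca1* (cholesterol efflux) at 0.14 ± 0.21.

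The genes whose 8 mouse values were closest to those of *Fdps* were *Mark3*, *Tap1* and *Cyp7b1*, with root mean square differences of 0.133, 0.142 and 0.211. Among the other 5 enzymes, *Fasn* came closest to *Fdps*, at rank 69 of 7171 genes, and *Sqle* was at rank 323. *Pmvk* was far from *Fdps*, at rank 6061, and its own closest genes were *Dnttip1*, *Mapk11* and *Trim27*, which also had their highest values in the liver of mouse 1. For *Ebp* the closest were *Hyal2*, *Ebi3* and *Barhl1*, for *Sqle* *Uts2r*, *Acrbp* and *Trappc2l*, and for *Agpat2* *Dppa4*, *Arhgap35* and *Snd1*. After *Thrsp*, *Wnk1* and *Syn1* were closest to *Fasn*. These are likenesses over 8 values that share 4 mice and their arrays, and are given as a description.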

How the data were processed

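RNA ratios of brain and liver were analysed for 4 HdhQ111/+ mice. The authors deposited normalized log2 ratios for 20794 probes on 16 arrays. No file header states the base or the sign. Scanner, background correction and normalization are not given in the sources used here. Each array had 19530 to 20584 values. No intensities were available. The precision stated rests on the spread between 4 mice and does not cover that of the wildtype pool.

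Per the labels, the mutant RNA was in Cy5 on 1 array of a pair and in Cy3 on the other. Dye differences of brain and liver correlated across 20599 probes (Spearman's rho 0.397) and pair means did not (-0.0075), so all arrays were taken to be turned one way. Platform symbols, 1 for each of 12771 probes, were read 11 rows from the values. Probe pairs of one gene correlated best there of 121 shifts (mean r 0.102 over 2953 pairs, 0.042 with no shift, 0.061 at the next best). This shift was chosen after the data were seen.

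Mouse values (means of both arrays) were tested against 0 in limma (version 3.58.1, R version 4.3.3, functions lmFit and eBayes, at least 3 mice, Benjamini-Hochberg over all probes, two-sided). The fit across probes and the fit across genes each had their own adjustment. Only the fits across probes were run on simulated data. The shifts planted there were larger than any mean of the enzymes examined, so that run does not cover effects of the size reported. The pool is 1 control sample, so the tests hold no spread between wildtype animals, and whatever is peculiar to a pool enters every ratio of that tissue. Liver and brain came from the same mice, per the labels, which makes the mouse a valid block. Spearman's rho between brain and liver deviations of a mouse was 0.053, -0.013, 0.084 and 0.020.

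The 6 genes and all lists were chosen with earlier results of these data known. Genes named are these 6, the 3 largest means of each pathway list per tissue, a set of key enzymes and regulators, and the 3 genes closest to each of the 6. Exceptions were chosen after their values were seen: *Msmo1*, *Mvk*, *Sc5d*, *Ggps1*, *Dhcr7*, *Agpat1*, *Agpat4*, *Agpat5* and the cell type markers. Alternatives were centring, scaling, removal of 1496 ratios over 15 in size, each dye orientation alone, 1 array per mouse, all mice required, genes in place of probes, robust eBayes, unshifted names, the mouse block and each mouse left out.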

Additional observations from a re-analysis of the deposited data

Results flagged for a closer look

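Of 72 sets of 4 mouse values examined over 39 genes, 6 had 1 mouse far from the other 3. Chance gives about 1 in 20 for sets not picked by their values. Some of these genes were picked for large means, which 1 extreme mouse can make, so that rate is no yardstick here. In liver, *Sqle* in mouse 1 was at 0.43 against -0.42 to -0.32 in the others. Among these others, mouse 2 averaged opposite array readings of -0.86 and 0.23. *Mvd* in mouse 1 was at 2.57 against -0.059 to 0.16. *Hmgcs1* in mouse 4 was at -0.54 against -0.037 to 0.029, each of which averages 2 probes of opposite sign. Mouse 1 also had the widest liver arrays, and the part of these arrays in the *Sqle* and *Mvd* values was not tested. In brain, *Gpam* in mouse 3 was at 0.13 against -1.40 to -1.20, *Lipa* in mouse 3 at -0.016 against 0.20 to 0.23, where its probes disagreed (mouse 3 was highest on one, at 0.44, and lowest on the other, at -0.47), and *Mttp* in mouse 1 at 4.44 against 0.024 to 0.17. That *Mttp* value came from 1 probe at 8.33, while the other read 0.54. A pair mean as large as 8.33 can come from 1 floor ratio (over 15 in size), so it may not be a measured level. *Agpat3* had every brain value above 0 and every liver value below it. Its mean liver-minus-brain difference was -0.436, with an unadjusted p of 0.0116 and an adjusted p of 0.708 by limma, and 4.55% of all genes had an unadjusted p under 0.05 in this direction.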

How the results depend on the processing

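The count of probes past the adjusted threshold stayed small under every alternative run. Without 1 mouse it was 0 to 2 in liver, 0 in brain and 0 to 7 for liver minus brain. In brain it was 2 on the Cy5 arrays alone and 1 where 1 array was enough. For liver minus brain it was 2 without floor ratios, 0 with all 4 mice required (1060 at an unadjusted p under 0.05) and 1 with the mouse as a replicate block, which changed no call of the 6 genes. No value of the 6 genes passed under any alternative, and the smallest adjusted p was 0.131, for *Fdps* in liver on the Cy3 arrays alone. Of 168 values under the alternatives other than unshifted names and left-out mice, 9 changed sign, all with 1 dye orientation, and the cause was not tested. With Cy5 alone these were *Pmvk* in liver (-0.14) and liver minus brain (-0.58) and *Agpat2* in brain (-0.62) and liver minus brain (0.44). With Cy3 alone these were *Fdps* (-0.059), *Pmvk* (-0.34), *Sqle* (-0.058) and *Fasn* (-0.012) in brain and *Sqle* in liver minus brain (0.0205). Of 72 values with a mouse left out, 2 changed sign, both *Fasn* in brain (-0.077 to 0.18). With names read at the unshifted rows, other probes stood for the genes: in liver *Fdps* was at 0.091, *Ebp* 0.13, *Fasn* 0.16 and *Agpat2* 0.22, in brain *Fdps* -0.038, *Pmvk* -0.34, *Ebp* -0.032, *Sqle* -0.040 and *Agpat2* -0.22, and for liver minus brain *Fdps* 0.13, *Ebp* 0.17 and *Agpat2* 0.44. List counts under other settings were added after seeing the data. Without mouse 3, 5 of 7 regulators were below 0 in brain (53.97% of all genes), against 1 with all mice (43.05%), and without floor ratios 0 were (43.28%). On the Cy5 arrays alone 1 of 8 regulators was below 0 in liver (49.53% of all genes).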

Other observations

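Of 9 hepatocyte markers measured, 7 had a liver mean below 0, against 56.7% of all genes. Their median was -0.18, against -0.17 for the cholesterol synthesis list and -0.031 for all genes. *Serpina1b*, a secreted protease inhibitor, was at -0.39, -0.36, -0.20 and -0.23 and had the only unadjusted p under 0.05 among them. Albumin (*Alb*) was near 0 in all 4 livers, at -0.0605, -0.0075, 0.092 and -0.044. The liver medians of 5 adipocyte markers and 7 endothelial markers were -0.076 and -0.11. These genes were chosen after their values were seen.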
